A study of Mus musculus with 16 samples.

Results

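The 10 genes described here encode mitochondrial acyl-CoA dehydrogenases and the proteins that take up their electrons. They were the rows of the deposited gene table with the symbols Acadvl, Acad9, Acadl, Acad10, Acadm, Acads, Acadsb, Etfa, Etfb and Etfdh, 10 of 45777 genes listed, and they were compared by the chain length of the substrate each enzyme prefers. All 10 had a count above 0 in every tumor and were tested. RNA-seq libraries had been made from B16F10 tumors, a melanoma line of C57BL/6 origin grown as allografts. The hosts were lean C57BL/6J mice or C57BL/6J-ob/ob mice, which lack leptin and become obese. In each host tumors were taken before therapy or after chemotherapy with etoposide (ETS), a drug that traps topoisomerase II on broken DNA. There were 4 tumors in each of the 4 groups, 16 libraries in all. All 4 groups share the tumor line, tumors before therapy had received no ETS, and the ob/ob genotype belongs to the host and not to the tumor cells. The study grew the tumors under the skin of the flank. It gave ETS as a course of daily doses and collected treated tumors a day later. The sample titles name no vehicle and no time of collection for tumors before therapy. If those tumors were taken earlier, ETS cannot be told apart from tumor age and growth. The labels number the tumors and do not tie them to individual mice, so p-values measure the spread between these samples.

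Each turn of mitochondrial beta-oxidation opens with an acyl-CoA dehydrogenase, which takes hydrogen from the acyl chain and passes the electrons to its bound flavin. Separate enzymes handle very long, long, medium and short chains, so a long fatty acid meets several of them as it is shortened. The electrons go on to the electron transfer flavoprotein (ETF), a heterodimer of the subunits encoded by Etfa and Etfb. The ETF dehydrogenase encoded by Etfdh, an iron-sulfur flavoprotein of the inner membrane, hands them to ubiquinone and so to the respiratory chain.

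Total counts ranged from 47199949 to 61655287 per tumor, and log2 CPM of tumors within a group correlated at 0.970 to 0.992. The melanocyte markers Mlana, Tyr, Dct, Pmel, Tyrp1 and Mitf were detected in every group, with a summed level of 8507 to 20817 TPM per tumor. Counts were scaled by TMM and are given as CPM, counts relative to the scaled library size of each tumor. Log2 fold changes and adjusted p are from edgeR's quasi-likelihood test on all 16 tumors with Benjamini-Hochberg adjustment over 16209 tested genes, and a gene was called at an adjusted p under 0.05. TPM, a level corrected for gene length and library total, was used to compare levels between genes. In these bulk samples, fewer cells of a type and less RNA per cell cannot be told apart.

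Etfb was the most abundant of the 10 transcripts per length in all 4 groups, and Acad10 the least. In lean tumors before therapy Etfb stood at 214 TPM ± 23.4 (SD, n = 4), Acadl at 131 TPM ± 4.87 and Etfa at 115 TPM ± 3.25, and the ranges of these 3 genes did not overlap. Acads at 63.1 TPM ± 5.51, Etfdh at 54.7 TPM ± 4.85 and Acadvl at 50.3 TPM ± 7.18 followed, and the ranges of neighbours among these 3 overlapped. Acadm stood at 34.5 TPM ± 3.08, Acad9 at 26.5 TPM ± 2.03 and Acadsb at 23.9 TPM ± 1.24, the last 2 with overlapping ranges, and Acad10 at 8.31 TPM ± 1.43. The order of levels did not follow chain length, since the long-chain enzyme Acadl was the most abundant dehydrogenase and the short-chain enzyme Acads the next.

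The shares of single dehydrogenases in their summed transcripts were compared before and after ETS, with no test. Acadl made up 38.9% ± 1.79 of the summed TPM of the 7 dehydrogenases before therapy in lean tumors and 26.3% ± 2.73 after ETS (SD, n = 4). The share of Acads was 18.7% ± 1.27 before and 28.4% ± 3.01 after, and that of Acadvl 14.9% ± 1.85 before and 21.9% ± 2.08 after. These shares did not overlap before and after ETS in lean tumors. In obese tumors the share of Acadl was 37.6% ± 2.99 before and 33.8% ± 3.14 after and that of Acads 21.2% ± 0.582 and 23.5% ± 3.197, both with overlap. The share of Acadvl was 15.5% ± 0.864 before and 20.8% ± 1.25 after, without overlap. In both hosts the shares of Acad9 and Acadm were lower and that of Acad10 higher after ETS, without overlap. The means went from 7.83% to 6.02%, 10.2% to 7.21% and 2.46% to 3.73% in lean tumors. In obese tumors they went from 7.96% to 5.63%, 9.30% to 7.39% and 1.87% to 3.16%. The share of Acadsb overlapped in both hosts. In lean tumors after ETS the ranges of Acads (97.9 to 119 TPM) and Acadl (82.98 to 105 TPM) overlapped. In obese tumors Acadl remained the most abundant dehydrogenase, at 143 TPM ± 13.3 before therapy and 151 TPM ± 25.4 after ETS. The sum of the 7 dehydrogenases was 338 TPM ± 7.99 and 367 TPM ± 7.004 before therapy and after ETS in lean tumors, and 379 TPM ± 8.23 and 445 TPM ± 49.3 in obese tumors.

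The promoter sequences of RefSeq (GRCm38.p6) covered 9 of the 10 genes, and the 250 bases before the start used for each promoter were searched on both strands for 6 motifs. The nuclear respiratory factor 1 (NRF1) site GCATGCGC, an element common before nuclear genes of mitochondrial proteins, was found in 4 of 9, Acadm, Etfa, Etfdh and Acad10, against 2.26% of 32851 promoters. The CCAAT box was found in 3 of 9, Etfa, Etfb and Etfdh, against 33.8% of all promoters. In Etfdh the forward and reverse NRF1 matches overlapped. For Acad10 the searched stretch, chr5:121660511-121660760, ran into the RefSeq gene, which reaches to 121660603. Its NRF1 match lay in the part inside the gene. The PPAR response element (2 copies of AGGTCA separated by 1 base), the estrogen-related receptor element TCAAGGTCA and the GABPA site CCGGAAG were in none of the 9, against 0.0335%, 0.387% and 6.91% of all promoters. The hypoxia response core ACGTG was in 1 of 9, Acadvl, against 16.6%. A match is a description of these letters only. The exact PPAR pattern is too rare for its lack in 9 promoters to be informative. Variants of the motifs and bases farther from the start were not searched. The ETF pair Etfa and Etfb and the medium- and short-chain pair Acadm and Acads are shown because the members of each pair moved differently after ETS, and Etfdh because it carries both motifs. NRF1 and CCAAT matches on either strand are in capitals, and each sequence runs 5′ to 3′ along the gene's strand and ends just before the start.
Etfa: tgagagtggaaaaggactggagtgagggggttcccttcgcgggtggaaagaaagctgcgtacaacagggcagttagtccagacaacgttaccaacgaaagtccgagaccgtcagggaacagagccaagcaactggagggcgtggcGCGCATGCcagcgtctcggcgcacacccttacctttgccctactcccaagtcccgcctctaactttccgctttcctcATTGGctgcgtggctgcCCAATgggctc
Etfb: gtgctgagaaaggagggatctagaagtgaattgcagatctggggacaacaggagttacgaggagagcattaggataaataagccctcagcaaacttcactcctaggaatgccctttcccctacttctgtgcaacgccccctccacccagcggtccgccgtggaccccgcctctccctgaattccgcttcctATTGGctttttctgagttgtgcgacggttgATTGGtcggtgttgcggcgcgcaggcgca
Etfdh: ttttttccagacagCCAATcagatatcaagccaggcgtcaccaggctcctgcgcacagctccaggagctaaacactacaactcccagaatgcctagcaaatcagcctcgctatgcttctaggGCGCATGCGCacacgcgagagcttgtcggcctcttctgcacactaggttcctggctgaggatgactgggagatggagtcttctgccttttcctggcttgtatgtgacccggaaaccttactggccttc
Acadm: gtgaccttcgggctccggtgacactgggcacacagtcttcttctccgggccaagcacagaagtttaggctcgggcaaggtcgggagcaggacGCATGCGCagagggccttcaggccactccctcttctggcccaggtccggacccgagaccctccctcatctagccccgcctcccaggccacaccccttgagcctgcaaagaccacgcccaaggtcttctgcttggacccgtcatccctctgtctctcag
Acads: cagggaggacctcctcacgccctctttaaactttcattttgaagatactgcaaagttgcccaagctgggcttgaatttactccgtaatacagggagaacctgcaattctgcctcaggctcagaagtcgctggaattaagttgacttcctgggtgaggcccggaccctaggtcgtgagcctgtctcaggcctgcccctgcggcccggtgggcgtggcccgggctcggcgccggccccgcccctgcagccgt
The Etfa sequence lies at chr9:55512244-55512493, that of Etfb at chr7:43443822-43444071, that of Etfdh at chr3:79628768-79629017, that of Acadm at chr3:153944644-153944893 and that of Acads at chr5:115119347-115119596. Etfb is on the plus strand and the others are on the minus strand. Each of the ETF subunit promoters carried 2 CCAAT matches, and of the pair Etfa alone carried the NRF1 match. Of Acadm and Acads, Acadm alone carried an NRF1 match. The other NRF1 carriers rose after ETS, Acad10 in both hosts and Etfdh in lean tumors. Whether the matches go with the changes was not tested.

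After ETS in lean tumors, 6 of the 10 genes rose, none fell and 4 were not called. Of all tested genes, 21.0% were called higher and 22.8% lower in this comparison. The genes that rose about 2-fold were Acadvl for very long chains, Acad10, Acads for short chains and the ETF subunit Etfb, and Acadsb and Etfdh rose by smaller amounts. Over the 10 genes the median log2 fold change was 0.39, beside -0.01 over all tested genes and 0.46 over 12 mitochondrial genes outside beta-oxidation. For the same 6 genes the CPM of all 4 tumors after ETS lay above those of all 4 before therapy, against 20.8% of tested genes.

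Acadvl, the inner-membrane enzyme that opens the oxidation of the longest chains, measured 68.5, 49.3, 40.9 and 48.3 CPM in the 4 lean tumors before therapy and 122, 121, 91.1 and 91.9 CPM after ETS. Lean tumor 1 was the highest of its group before therapy, and the groups did not overlap. The log2 fold change was 1.04 ± 0.15 (SE), 2.06-fold, with an adjusted p of 9.02e-05. Acads, which acts on butyryl-CoA, measured 68.5, 49.996, 48.1 and 54.6 CPM before and 113, 150.5, 103 and 107 CPM after. Every tumor after ETS was above every tumor before, and tumor 2 after ETS was the highest. The log2 fold change of Acads was 1.10 ± 0.16 (2.14-fold, adjusted p = 0.000106). Acad10, a little studied enzyme with activity reported on branched and long chains, measured 12.7, 11.6, 13.7 and 16.1 CPM before and 28.8, 30.6, 29.9 and 25.4 CPM after, again with no overlap. Its log2 fold change was 1.08 ± 0.17 (2.12-fold, adjusted p = 0.000176). Its counts were the lowest of the 10 genes, from 583 to 1961 reads per tumor over the 16 tumors.

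The long-chain and medium-chain enzymes were not called. Acadl measured 127, 116, 112 and 121 CPM in lean tumors before therapy and 113, 109, 109.7 and 119.5 CPM after ETS, with a log2 fold change of -0.08 (95% interval -0.26 to 0.10, adjusted p = 0.473). Acadm, the medium-chain enzyme whose deficiency is the most common inherited defect of beta-oxidation, measured 32.3, 34.9, 32.04 and 32.9 CPM before and 34.6, 32.7, 33.2 and 30.8 CPM after. These values overlapped, and the interval of the log2 fold change of Acadm ran from -0.19 to 0.17 (adjusted p = 0.936). Acad9, best known as an assembly factor of respiratory complex I, had a log2 fold change of 0.09 (interval -0.14 to 0.33, adjusted p = 0.514). Acadsb, which acts on a branched acyl-CoA from isoleucine, measured 44.7, 35.5, 37.9 and 37.4 CPM before and 55.1, 49.7, 47.1 and 49.2 CPM after, and rose by a log2 fold change of 0.37 ± 0.11 (adjusted p = 0.0107). The calls were not ordered by chain length, since the very-long-chain enzyme Acadvl and the short-chain enzymes rose while Acadl and Acadm between them were not called.

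**Figure D1:**
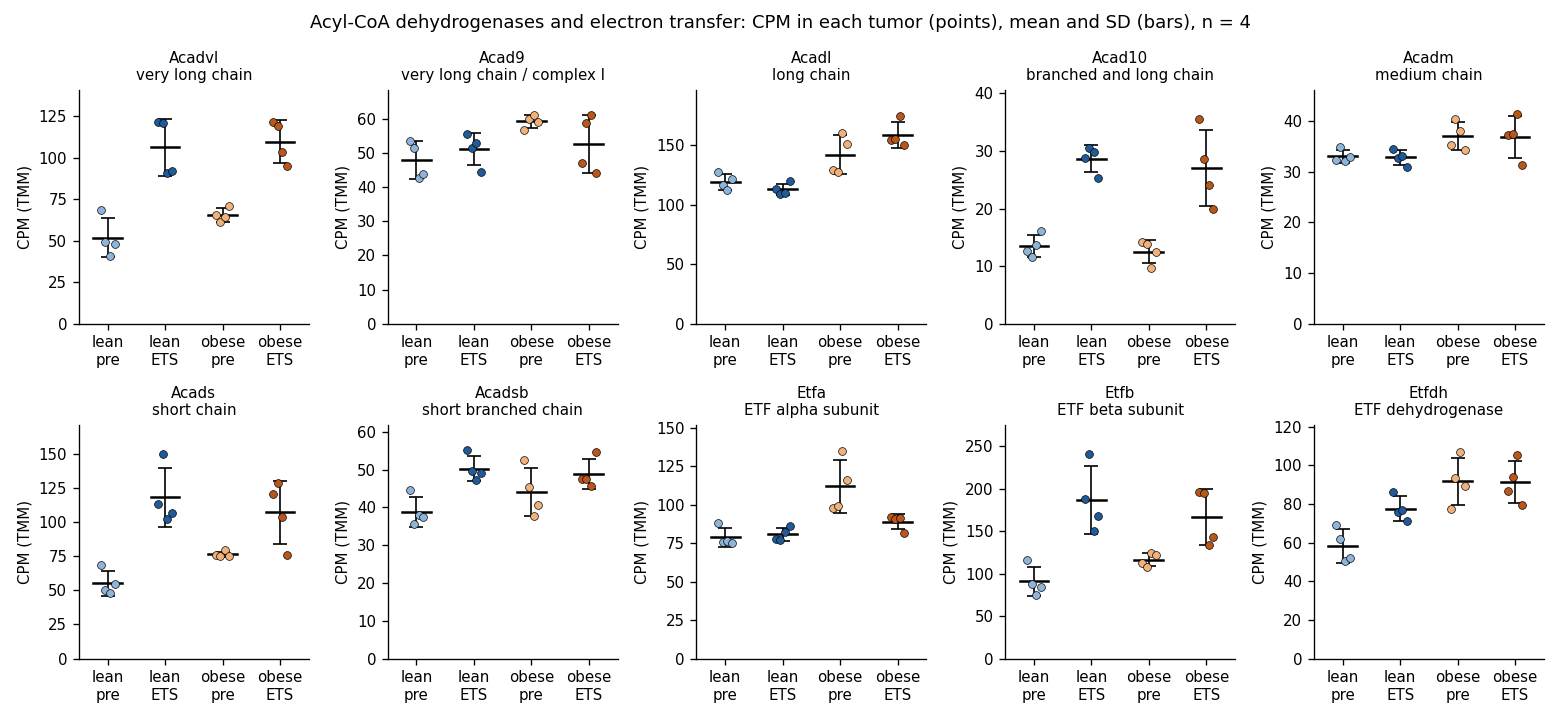
CPM (counts relative to the TMM-scaled library) of each of the 10 genes in every tumor, by group, with the vertical axes starting at 0, points for tumors and bars for the mean and SD of 4 tumors. In lean tumors after ETS, Acadvl, Acad10, Acads, Acadsb, Etfb and Etfdh lie above all lean tumors before therapy, and Acadm lies between 30.8 and 34.9 CPM in all lean tumors.

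The ETF subunits, which assemble in equal numbers, differed in their transcripts. Etfb measured 116, 87.6, 75.2 and 84.3 CPM in lean tumors before therapy and 187, 241, 149.8 and 168 CPM after ETS. All tumors after ETS were above all before, and the log2 fold change was 1.04 ± 0.17 (2.06-fold, adjusted p = 0.000228). Etfa measured 87.9, 75.5, 76.2 and 74.99 CPM before and 77.6, 77.2, 82.02 and 86.2 CPM after, which overlapped (log2 fold change 0.04, interval -0.17 to 0.24, adjusted p = 0.773). Etfdh, the last carrier before ubiquinone, measured 68.9, 62.03, 50.6 and 51.9 CPM before and 86.4, 75.8, 76.8 and 71.1 CPM after. Every lean tumor after ETS had more Etfdh than every lean tumor before, and the log2 fold change was 0.41 ± 0.12 (adjusted p = 0.0130). Without lean tumor 1 after ETS, Acadsb (log2 fold change 0.30, adjusted p = 0.0502) and Etfdh (0.33, adjusted p = 0.0557) were no longer called, which left 4 genes. That fit called 2857 of 16268 tested genes higher, against 3410 of 16209 with all tumors.

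The scaling touched the genes that moved little. After ETS the mitochondrially encoded COX1 held 3.94% to 6.24% of the counts of lean tumors, against 1.48% to 2.36% before. On the TPM scale, limma on log2(TPM + 1) put the median log2 fold change of all tested genes in lean tumors at -0.28, and 15.7% of called genes were higher, against 48.03% with TMM. On that scale Acadl (-0.45, adjusted p = 0.00310), Acadm (-0.37, adjusted p = 0.0133) and Etfa (-0.33, adjusted p = 0.0155) were called lower in lean tumors, and Acadsb (-0.01) and Etfdh (0.04) were not called. Relative to that median the log2 fold changes were -0.17 for Acadl, -0.10 for Acadm, -0.06 for Etfa, 0.27 for Acadsb and 0.32 for Etfdh. Acadvl, Acad10, Acads and Etfb were called higher on both scales. The share of higher genes among all those called also moved with the TPM scale in the comparisons described further on, from 38.7% to 9.24% for the lean minus obese effect (median of all genes -0.16), from 50.96% to 28.96% for obese against lean before therapy (median -0.08) and from 58.7% to 83.8% after ETS (median 0.10).

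After ETS in obese tumors, 4 of the 10 genes rose, Etfa fell and 5 were not called, against 21.2% of tested genes called higher and 19.0% lower. The genes that rose were again Acadvl, Acad10, Acads and Etfb, so that 4 of 10 were called higher in both hosts, against 8.93% of tested genes. Over the 10 genes the median log2 fold change was 0.15, beside 0.01 over all tested genes and 0.0004 over the 12 mitochondrial genes outside beta-oxidation. The CPM did not overlap for 3 genes that were higher, Acadvl, Acad10 and Etfb, against 16.4% of tested genes, and for 1 that was lower, Etfa, against 17.7%.

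Acadvl measured 65.8, 61.2, 64.1 and 71.2 CPM in obese tumors before therapy and 122, 119, 104 and 95.05 CPM after ETS, with a log2 fold change of 0.74 ± 0.15 (1.68-fold, adjusted p = 0.00124). Acad10 measured 14.1, 13.9, 9.76 and 12.4 CPM before and 35.6, 28.6, 24.1 and 20.00 CPM after, with a log2 fold change of 1.11 ± 0.17 (2.16-fold, adjusted p = 0.000190). For both enzymes every obese tumor after ETS was above every obese tumor before. Acads measured 76.3, 75.2, 79.3 and 75.4 CPM before and 121, 129, 104 and 76.4 CPM after. Obese tumor 4 after ETS lay among the values before therapy, so the groups overlapped, and the log2 fold change of Acads was 0.49 ± 0.16 (1.403-fold, adjusted p = 0.0222). Acadl measured 129, 127, 160.5 and 151 CPM before and 154, 156, 175 and 150.1 CPM after, which overlapped (log2 fold change 0.16, interval -0.02 to 0.34, adjusted p = 0.140).

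Acadm was again not called in obese tumors, at 35.4, 40.5, 38.1 and 34.3 CPM before and 37.3, 37.5, 41.3 and 31.4 CPM after (interval of the log2 fold change -0.19 to 0.18, adjusted p = 0.962). Acad9 measured 56.7 to 61.04 CPM before and 44.05 to 61.1 CPM after (log2 fold change -0.17, adjusted p = 0.242), and Acadsb 37.8 to 52.6 CPM before and 45.6 to 54.7 CPM after (0.15, adjusted p = 0.281). Both overlapped before and after ETS. Etfb measured 112, 107, 124 and 122 CPM before and 196, 195, 134 and 144 CPM after, and rose by a log2 fold change of 0.52 ± 0.16 (1.43-fold, adjusted p = 0.0212). Etfa measured 97.7, 99.1, 135 and 116 CPM before and 92.1, 90.4, 91.1 and 81.9 CPM after. Every obese tumor after ETS had less Etfa than every obese tumor before, and its log2 fold change was -0.33 ± 0.10 (adjusted p = 0.0139). Etfdh measured 77.5, 93.5, 107 and 89.2 CPM before and 86.8, 94.1, 105 and 79.7 CPM after, with an interval of the log2 fold change from -0.26 to 0.25.

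Single obese tumors carried some of these calls. Etfa was not called without obese tumor 3 before therapy (log2 fold change -0.23, adjusted p = 0.0510). Acads lost its call without obese tumor 4 before therapy (adjusted p = 0.0516) or obese tumor 1 (adjusted p = 0.0515) or 2 (adjusted p = 0.0741) after ETS. Etfb lost its call without obese tumor 2 before therapy (adjusted p = 0.0521) or obese tumor 1 (adjusted p = 0.0536) or 2 (adjusted p = 0.0655) after ETS. Acadvl and Acad10 kept theirs with any tumor left out. The fits in which a call was lost called 4898 to 6042 of all tested genes, against 6517 with all tumors.

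**Figure D2:**
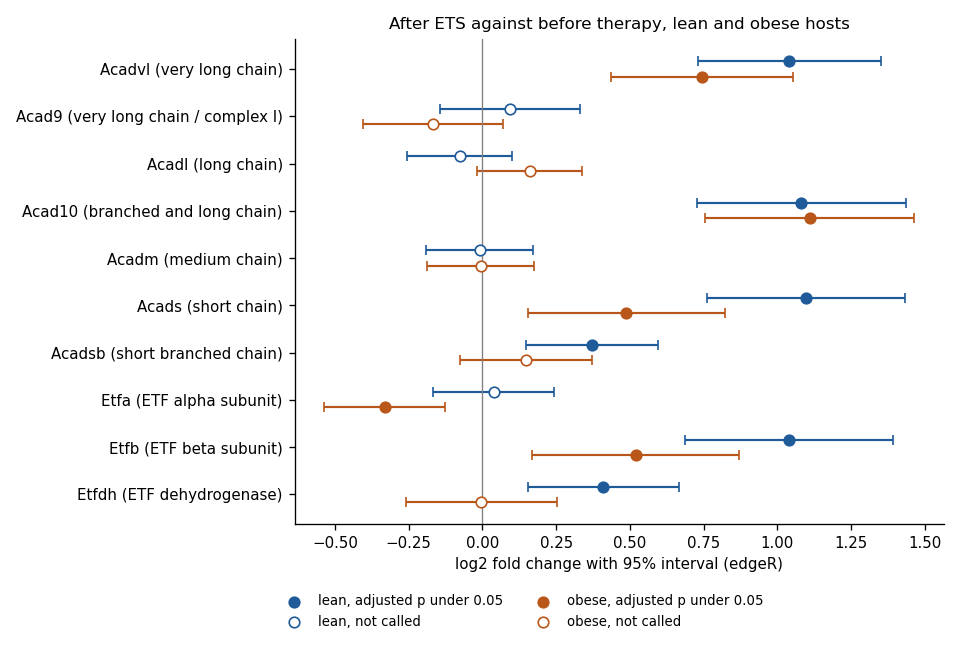
Log2 fold change after ETS with its 95% interval (edgeR) for the 10 genes, from very-long-chain enzymes at the top to ETF dehydrogenase at the bottom, in lean (blue) and obese (orange) hosts, filled where the adjusted p was under 0.05. Acadvl, Acad10, Acads and Etfb are filled and above 0 in both hosts, and Acadm lies at -0.01 in both.

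Whether the change after ETS differed between the hosts was tested as the lean minus the obese log2 fold change. None of the 10 genes passed edgeR's test at an adjusted p under 0.05, 4 had an unadjusted p under 0.05 (Acads, Etfa, Etfb and Etfdh), and DESeq2's Wald test called 1, Acads. Of all tested genes, 16.4% were called in this comparison. The difference was 0.61 for Acads (95% interval 0.14 to 1.08, adjusted p = 0.0729), 0.52 for Etfb (interval 0.03 to 1.02, adjusted p = 0.144), 0.41 for Etfdh (interval 0.05 to 0.78, adjusted p = 0.112) and 0.37 for Etfa (interval 0.08 to 0.66, adjusted p = 0.0779). For Acadvl it was 0.30 (interval -0.14 to 0.73), for Acad10 -0.03 (interval -0.52 to 0.47) and for Acadm -0.00 (interval -0.26 to 0.25). For Acadl the difference was -0.24 (interval -0.49 to 0.01), for Acad9 0.26 (interval -0.07 to 0.60) and for Acadsb 0.22 (interval -0.09 to 0.54). Without lean tumor 1 before therapy 4 genes were called, Acads (0.73, adjusted p = 0.0291), Etfa (0.43, adjusted p = 0.0421), Etfdh (0.50, adjusted p = 0.0460) and Etfb (0.66, adjusted p = 0.0495). That fit called 3096 of 16266 tested genes, against 2660 of 16209 with all tumors. Etfa was called as well without obese tumor 1 (adjusted p = 0.0438) or 2 (adjusted p = 0.0491) before therapy, and Acads without obese tumor 2 after ETS (adjusted p = 0.0445).

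Ratios between genes of the same tumor do not depend on how libraries are scaled against each other, and 8 comparisons of such ratios before and after ETS were made by two-sided exact permutation tests of the log2 TPM ratio. With 4 tumors against 4 the smallest p these can give is 0.0286, and 6 of the 8 reached it (adjusted p = 0.0381 for each, over the 8 tests). The ratio of Acadvl to Acadm was 2.001, 1.33, 1.20 and 1.38 before therapy in lean tumors and 3.32, 3.49, 2.59 and 2.81 after ETS, with no overlap (log2 difference 1.06, exact p = 0.0286). In obese tumors it was 1.75, 1.42, 1.59 and 1.96 before and 3.08, 2.99, 2.36 and 2.85 after (log2 difference 0.75, exact p = 0.0286). Acadvl transcripts thus rose relative to those of Acadm in both hosts. The ratio of Acads to Acadm was 2.34, 1.58, 1.65 and 1.83 before and 3.62, 5.08, 3.42 and 3.81 after ETS in lean tumors (log2 difference 1.10, exact p = 0.0286). In obese tumors it was 2.38, 2.05, 2.30 and 2.43 before and 3.57, 3.78, 2.78 and 2.68 after (log2 difference 0.47, exact p = 0.0286). Acads transcripts also rose relative to those of Acadm, with no overlap in either host.

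The ratio of Acadl to Acadm overlapped before and after ETS in both hosts. It was 3.52 to 4.17 before and 3.47 to 4.10 after in lean tumors (log2 difference -0.07, exact p = 0.343, adjusted p = 0.343), and 3.33 to 4.67 before and 4.38 to 5.06 after in obese tumors (log2 difference 0.18, exact p = 0.257, adjusted p = 0.294). With the trend on GC content taken out, an alternative added after seeing the data, the ratio was higher after ETS in obese tumors (log2 difference 0.28, exact p = 0.0286, adjusted p = 0.0381). The ratio of Etfa to Etfb was 0.47, 0.53, 0.63 and 0.55 before therapy in lean tumors and 0.26, 0.20, 0.34 and 0.32 after ETS, a log2 difference of -0.996 (exact p = 0.0286). In obese tumors it was 0.54, 0.57, 0.67 and 0.59 before and 0.29, 0.29, 0.42 and 0.35 after, a log2 difference of -0.82 (exact p = 0.0286). The ETF subunit transcripts moved apart in both hosts, with every tumor after ETS below every tumor before.

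**Figure D3:**
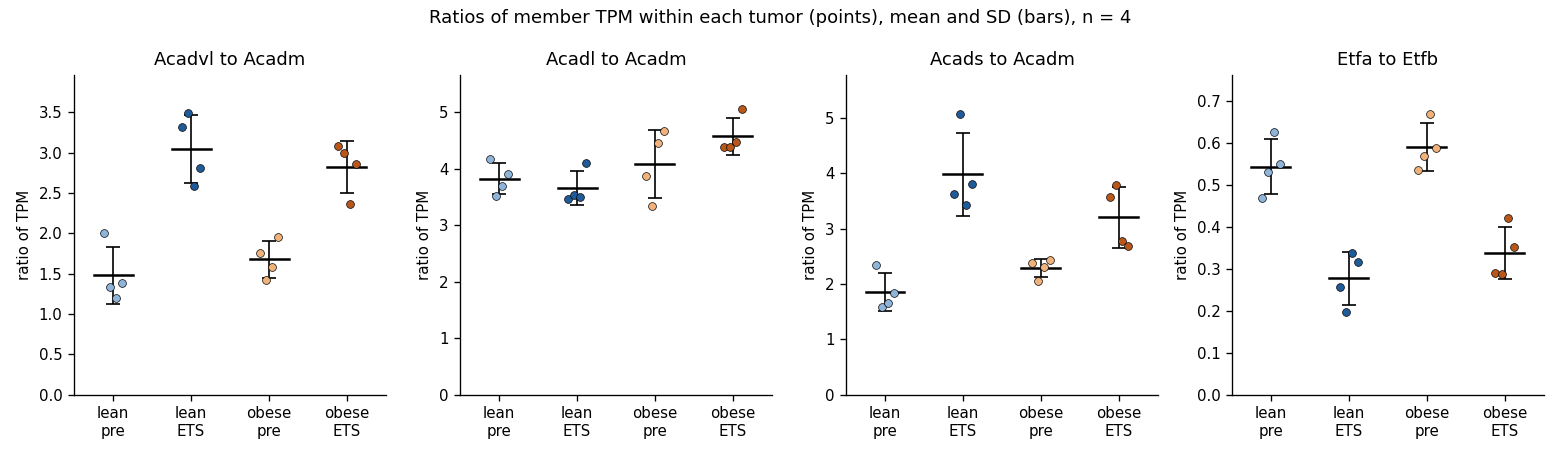
Ratio of TPM between 2 genes within each tumor, by group, with points for tumors and bars for the mean and SD of 4 tumors. Acadvl to Acadm and Acads to Acadm are higher and Etfa to Etfb lower in all tumors after ETS than in all before within each host, and Acadl to Acadm overlaps.

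GC content differed between the genes that rose about 2-fold and the others. The longest transcripts of Acads (60.1%), Etfb (57.1%), Acad10 (55.3%) and Acadvl (53.7%) were above the median GC content of 50.2% over tested genes. Those of Acad9 (48.1%), Acadm (48.0%), Etfdh (47.1%), Acadl (45.1%), Etfa (45.04%) and Acadsb (42.7%) were below it. Over tested genes the log2 fold change after ETS went with GC content in lean (Spearman's rho = 0.25) and obese tumors (rho = 0.33), a description across genes, which are not independent. In lean tumors the median log2 fold change was 0.12 over the 1654 genes within 1 percentage point of the GC content of Acadvl, and 0.24 over the 608 genes within 1 point of Acads. With the trend on GC content taken out of each tumor, an alternative added after seeing the data, the same 6 genes were called in lean tumors, with log2 fold changes of 0.94 for Acadvl, 0.94 for Acad10, 0.84 for Acads, 0.85 for Etfb, 0.58 for Acadsb and 0.49 for Etfdh. In obese tumors, Acadvl (0.58, adjusted p = 0.00333) and Acad10 (0.92, adjusted p = 0.000537) were still called. Acads (0.28, adjusted p = 0.138), Etfb (0.31, adjusted p = 0.104) and Etfa (-0.16, adjusted p = 0.206) were not, and Acadl (0.33, adjusted p = 0.00636) and Acadsb (0.39, adjusted p = 0.0177) were called higher. The log2 ratio of Etfa to Etfb then differed by -0.67 in lean and -0.44 in obese tumors (exact p = 0.0286 in each), and that of Acads to Acadm in obese tumors by 0.20 (exact p = 0.200, adjusted p = 0.229).

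**Figure D4:**
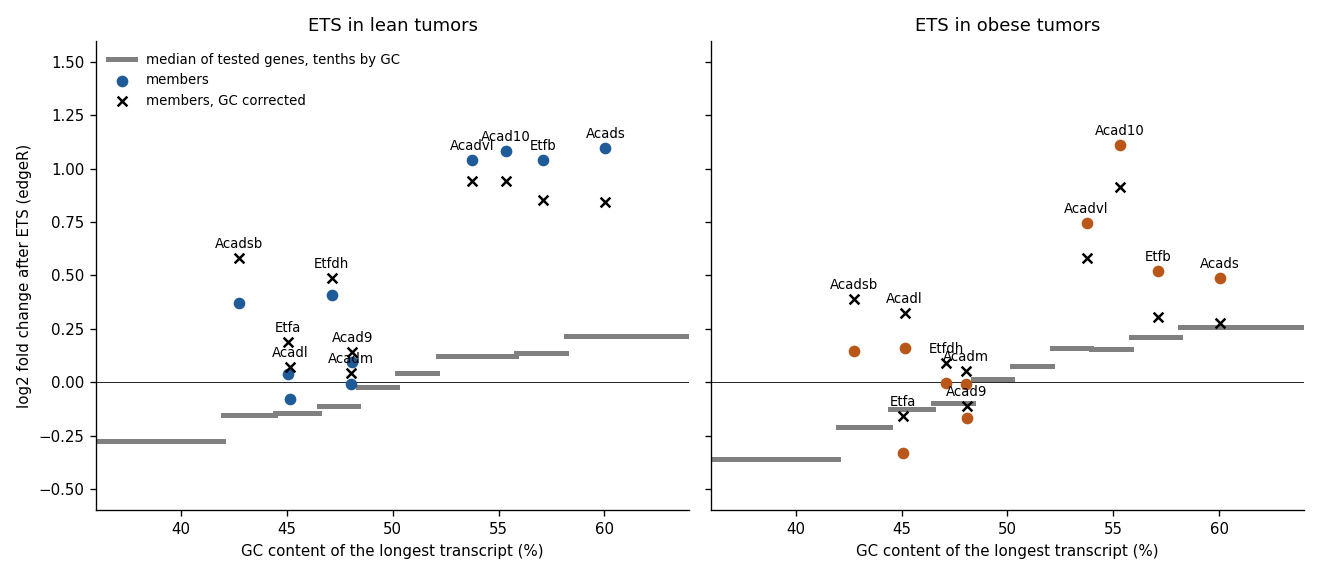
Log2 fold change after ETS (edgeR) against the GC content of the longest transcript in lean (left) and obese (right) tumors, with dots for the 10 genes, crosses for their values after the GC trend was taken out, and grey marks for the median of tested genes in 10 bins of GC content. The medians run from -0.28 in the lowest to 0.22 in the highest bin in lean and from -0.36 to 0.26 in obese tumors, and Acadvl, Acad10, Etfb and Acads lie above the grey marks in both panels.

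Before therapy, 9 of the 10 genes had a log2 difference above 0 between obese and lean tumors. Acadl, Acads, Etfa and Etfdh were called higher in obese tumors, none was called lower and 6 were not called, against 13.5% of tested genes called higher and 12.9% lower. The median difference of the 10 genes was 0.32, beside 0.02 over all tested genes and 0.44 over the 12 mitochondrial genes outside beta-oxidation. The largest was that of Etfdh, 0.65 ± 0.12 on the log2 scale (1.57-fold, adjusted p = 0.00112), with obese tumors at 77.5 to 107 CPM and lean tumors at 50.6 to 68.9 CPM. Etfa followed at 0.51 ± 0.10 (1.42-fold, adjusted p = 0.00137), with obese tumors at 97.7 to 135 CPM and lean tumors at 74.99 to 87.9 CPM. For both genes every obese tumor was above every lean tumor. Acads differed by 0.47 ± 0.16 (adjusted p = 0.0371), with obese tumors at 75.2 to 79.3 CPM and lean tumors at 48.1 to 68.5 CPM. Acadl differed by 0.25 ± 0.08 (adjusted p = 0.0357), where the lowest obese and the highest lean tumor were both at 127 CPM. Acad9 (0.31, adjusted p = 0.0541), Acadvl (0.34, adjusted p = 0.0971), Etfb (0.36, adjusted p = 0.122), Acadsb (0.18, adjusted p = 0.225), Acadm (0.17, adjusted p = 0.173) and Acad10 (-0.11, adjusted p = 0.668) were not called. On the TPM scale the difference of Acadl was 0.11 (limma, adjusted p = 0.485). The calls of Etfa and Etfdh stood with any tumor of these groups left out. Between 2 and 7 genes were called in those fits, 2 without lean tumor 2, 3 or 4 or obese tumor 3 or 4, and 7 without lean tumor 1. Over all tested genes, the fits with 2 called 3102 to 3481 and the fit with 7 called 4221, against 4280 with all tumors.

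After ETS, Acadl was called higher in obese tumors and the other 9 genes were not called, against 3.28% of tested genes called higher and 2.30% lower. It measured 113, 109, 109.7 and 119.5 CPM in lean and 154, 156, 175 and 150.1 CPM in obese tumors. Every obese tumor was above every lean tumor, and the log2 difference was 0.49 ± 0.08 (adjusted p = 0.00942). With only these groups in the fit the difference was 0.49 and no longer called (adjusted p = 0.0505). That fit called 66 of 16209 tested genes in either direction, against 904 in the fit of all tumors. Of the genes not called, Etfdh (0.24, interval -0.02 to 0.50), Acadm (0.17, interval -0.01 to 0.35) and Etfa (0.14, interval -0.07 to 0.34) had values above 0.1. Acadvl (0.05, interval -0.26 to 0.35), Acad9 (0.04, interval -0.19 to 0.28) and Acadsb (-0.04, interval -0.27 to 0.18) were near 0. The differences of Acad10 (-0.08, interval -0.43 to 0.27), Acads (-0.14, interval -0.47 to 0.19) and Etfb (-0.16, interval -0.51 to 0.19) were below 0. This comparison shares its tumors with the comparisons of ETS within each host.

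**Figure D5:**
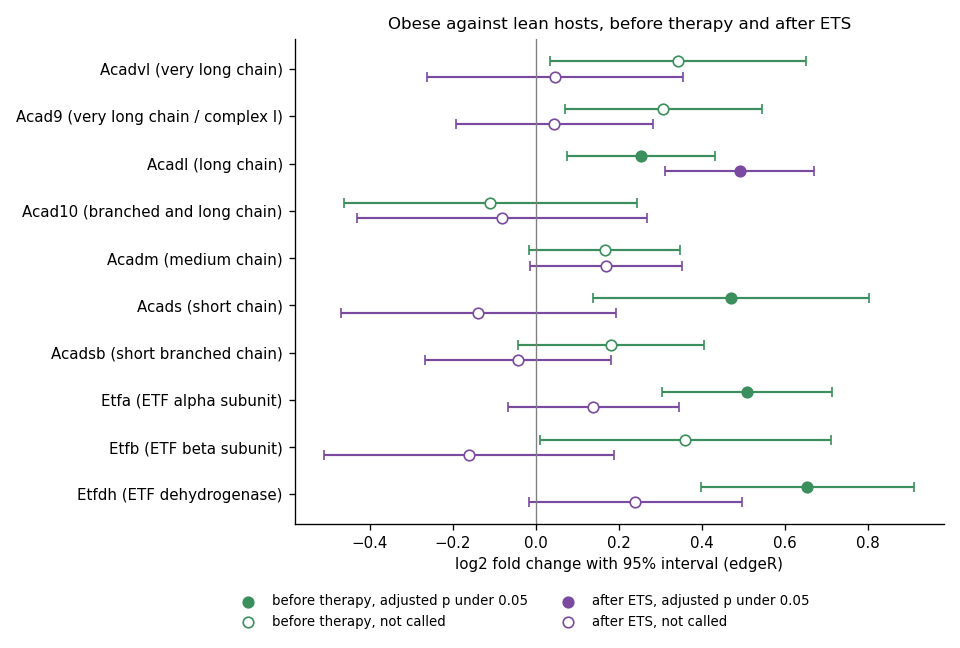
Log2 difference of obese against lean tumors with its 95% interval (edgeR) for the 10 genes, before therapy (green) and after ETS (purple), filled where the adjusted p was under 0.05. Before therapy 9 of 10 genes lie above 0 and Acadl, Acads, Etfa and Etfdh are filled, and after ETS Acadl is.

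Markers of other cells of the tumors differed along with these comparisons. The summed level of 6 macrophage markers was 456 to 1246 TPM in lean tumors before therapy and 56.1 to 287 TPM after ETS, and 49.8 to 272 TPM in obese tumors before and 279.8 to 977 TPM after, so it was lower after ETS in lean and higher in obese tumors. The 5 fibroblast markers summed to 147 to 407 TPM before and 19.00 to 118 TPM after ETS in lean tumors, and to 22.2 to 133 TPM before and 148 to 1183 TPM after in obese tumors. The 3 T cell markers summed to 12.8 to 22.9 TPM in lean tumors before therapy and under 1 TPM in every other tumor. On counts, the 1 of them that was tested was called higher after ETS in lean tumors (log2 fold change 0.33). Its counts and TPM went in opposite directions, so the T cell sums are uncertain. The macrophage and fibroblast sums thus had their highest values in lean tumors before therapy and in obese tumors after ETS. The 4 endothelial markers summed to 43.6 to 61.7 TPM before and 27.2 to 35.05 TPM after ETS in lean tumors, and to 19.2 to 38.3 TPM before and 37.5 to 84.5 TPM after in obese tumors. They were lower after ETS in all lean tumors, and the obese groups overlapped. The melanocyte markers summed to 16898 to 20817 TPM in lean and 8507 to 12404 TPM in obese tumors before therapy, and to 15206 to 18241 TPM and 8727 to 17152 TPM after ETS. The mean sum of lean tumors was 18938 TPM before and 17199 TPM after ETS. On counts, unlike this sum, 5 of the 6 markers had a log2 fold change above 0 in lean tumors (median 0.24). Of the 6, 1 was called higher and none lower, beside 21.0% and 22.8% of tested genes. Skeletal muscle is rich in these enzymes, and its 6 markers summed to 407 TPM in obese tumor 2 after ETS, 266 and 197 TPM in lean tumors 1 and 2 after ETS, 234 and 60.3 TPM in lean tumors 2 and 4 before, and under 10 TPM in the others. The 5 adipocyte markers summed to 0.288 to 8.24 TPM in lean tumors before therapy and 0 to 7.51 TPM after ETS. In obese tumors they summed to 0.106 to 37.3 TPM before (mean 10.95) and 0.294 to 38.01 TPM after (mean 26.0). On counts, the 1 adipocyte marker that was tested was called lower after ETS in obese tumors (log2 fold change -0.43), unlike the mean TPM sum. The 3 keratinocyte markers summed to 98.1 TPM in obese tumor 2 after ETS and at most 3.41 TPM elsewhere. The brown adipocyte markers Ucp1 and Cidea were at 0 in 3 of the groups and summed to at most 0.157 TPM in obese tumors after ETS. The part of these cells in the changes of the 10 genes was not tested.

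Other steps of the pathway were described from lists of genes. Of 8 genes of the later steps of beta-oxidation, 6 rose after ETS in lean tumors and 4 in obese tumors, none fell, and 1 differed between the hosts' responses (Hadh, 0.53 ± 0.12, adjusted p = 0.00730). Of all tested genes, 21.0% rose in lean and 21.2% in obese tumors, and 16.4% were called for the difference between hosts, so the 1 of 8 is no more than that share. The largest log2 fold changes were those of Eci2, an isomerase for unsaturated chains (1.23 ± 0.15 in lean and 0.71 ± 0.15 in obese tumors), Acaa2, the medium-chain thiolase (0.96 ± 0.19 and 0.62 ± 0.19), and Hadha, the alpha subunit of the trifunctional protein for long chains (0.71 ± 0.13 and 0.46 ± 0.13). Before therapy 4 of the 8 were higher in obese tumors, beside 13.5% of tested genes, led by Eci2 (0.73 ± 0.15), Hadhb (0.44 ± 0.11) and Hadh (0.41 ± 0.08), and after ETS none was called by edgeR, 2 having an unadjusted p under 0.05. Of the 12 mitochondrial genes outside beta-oxidation, 11 rose after ETS in lean tumors, beside 21.0% of tested genes, among them Uqcrc1 (0.67 ± 0.16) and Sdhb (0.67 ± 0.15). In obese tumors 2 of them rose, among them Ogdh (0.60 ± 0.13), and 1, Tfam, which maintains mitochondrial DNA, fell (-0.37 ± 0.09). The share that rose was near the 21.2% of all tested genes, and the share that fell was below their 19.0%. Before therapy 8 of these 12 were higher in obese tumors, beside 13.5%, with Idh3a (0.77 ± 0.16), Vdac1 (0.66 ± 0.12) and Sdhb (0.51 ± 0.15) the largest. The lean minus obese effect was called for 3 of the 12, beside 16.4% of tested genes, Sdhb (0.66 ± 0.21), Vdac1 (0.55 ± 0.17) and Uqcrc2 (0.51 ± 0.16).

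The 5 related dehydrogenases outside the 10 were Acad8, Ivd and Gcdh, which act in the breakdown of valine, leucine and lysine, and Acad11 and Acad12. In lean tumors after ETS, Acad12 (1.53 ± 0.19, adjusted p = 3.24e-05), Acad11 (0.74 ± 0.13) and Acad8 (0.45 ± 0.10) rose, and Gcdh (0.31 ± 0.16) and Ivd (-0.08 ± 0.10) were not called. In obese tumors Acad12 (1.01 ± 0.19) and Acad11 (0.56 ± 0.13) rose, and Acad8 (0.26 ± 0.10), Gcdh (0.09 ± 0.16) and Ivd (-0.16 ± 0.10) were not called. Over all tested genes, 21.0% rose in lean and 21.2% in obese tumors. Before therapy Acad8 alone of the 5 was called higher in obese tumors (0.31 ± 0.10), beside 13.5% of tested genes. None of the 5 was called after ETS or for the lean minus obese effect by edgeR, with 1 and 0 at an unadjusted p under 0.05. Acad12 rose from 2.76 CPM ± 0.347 to 7.997 CPM ± 0.498 in lean tumors (SD, n = 4).

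Some reads of these genes could belong to neighbours or copies. Acad10 (chr5:121621026-121660603) and Acad12 (chr5:121598277-121618938), both on the minus strand, are separated by 2087 bases in RefSeq GRCm38.p6. In GENCODE 7.3% of the read-length runs of Acad10 transcripts are also in Acad12, so the levels of both are uncertain. The share of the runs of Acad12 was not computed. Acad12 had the lower level, 2.76 CPM against 13.5 CPM for Acad10 in lean tumors before therapy. The uncertain part of its level is therefore not known. Etfb (chr7:43444072-43457800, plus strand) shares 35.7% of its runs with the annotated gene Gm45233. Acadvl (chr11:70010183-70015428, minus strand) lies 73 bases from Dvl2 on the other strand, and in GENCODE their exons share 42.9% of the exonic bases of Acadvl. Whether strand was used in counting is not stated, and Dvl2 was called lower after ETS (-0.77 ± 0.10 in each host) while Acadvl was higher.

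Of 9 tested genes for flavin supply and partners of ETF, 4 rose and 1 fell in lean tumors after ETS, and in obese tumors 2 rose. Over all tested genes, 21.0% were called higher and 22.8% lower in lean hosts. In obese hosts 21.2% were called higher, about the share of this list. The riboflavin transporter gene Slc52a3 fell in lean (-2.44 ± 0.52) but was higher after ETS in obese tumors (2.102 ± 0.53), with a lean minus obese difference of -4.54 ± 0.75 (adjusted p = 0.000823). Its level was low, 0.356 to 1.56 CPM in lean tumors before and 0.0716 to 0.320 CPM after, and 0.0706 to 0.319 CPM in obese tumors before and 0.526 to 0.928 CPM after. Neither host overlapped before and after ETS. Slc52a3 was lower in obese than lean tumors before therapy (-2.54 ± 0.53) and higher after ETS (2.002 ± 0.53). These are the directions of the summed macrophage and fibroblast markers, and the part of those cells was not tested. Sardh (0.74 ± 0.20) and D2hgdh (0.69 ± 0.14), whose enzymes also pass electrons to ETF, were the next in size in lean tumors. Etfrf1, a regulator that binds ETF, rose in obese tumors (0.43 ± 0.10) and was higher in obese than lean tumors before therapy (0.68 ± 0.10) and after ETS (0.49 ± 0.10). Of 5 tested partners of Acad9 in complex I assembly, Ndufaf1 alone rose in lean tumors (0.49 ± 0.11), beside 21.0% of tested genes. Ndufaf1 alone was higher in obese tumors before therapy (0.34 ± 0.11), beside 13.5%. Tmem126b alone fell in obese tumors after ETS (-0.41 ± 0.14), beside 19.0%. Each of these is 1 of 5, near the share of all tested genes.

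Transcription regulators of the pathway went in several directions. After ETS in lean tumors, Esrra, the estrogen-related receptor alpha (0.99 ± 0.15, adjusted p = 0.000178), and Ppard (0.50 ± 0.10) rose, and Pparg (-2.20 ± 0.43) and the coactivator Ppargc1b (-0.81 ± 0.28) fell. Ppara (0.73 ± 0.34, adjusted p = 0.0904), Hif1a (0.28 ± 0.12) and Ppargc1a (-0.16 ± 0.22) were not called. The level of Ppara was low, 0.353 to 0.651 CPM in lean tumors before and 0.368 to 1.34 CPM after ETS. It was 0.620 to 0.918 CPM in obese tumors before and 0.578 to 1.28 CPM after, so its changes are poorly measured. In obese tumors Esrra (0.42 ± 0.15) and Pparg (1.27 ± 0.42) rose and Ppargc1b fell (-0.74 ± 0.28), and Ppara (0.28 ± 0.33), Ppard (0.16 ± 0.10), Hif1a (-0.10 ± 0.12) and Ppargc1a (-0.25 ± 0.22) were not called. The lean minus obese difference was called for Pparg (-3.47 ± 0.59). Before therapy Esrra was higher (0.64 ± 0.15) and Pparg lower (-1.80 ± 0.42) in obese tumors, and after ETS Pparg was higher (1.67 ± 0.42). Pparg had the same directions as the summed macrophage markers in these comparisons, and the part of these cells was not tested.

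The genes whose log2 CPM was most like that of Acadvl over the 16 tumors were Smim4 (Pearson's r = 0.97), Ablim1 (0.97) and Golga7 (0.97), and those most like Acadm were Ehhadh, a peroxisomal beta-oxidation enzyme (0.84), Gfm1 (0.82) and Npr3 (0.80). For Acads they were Rsph3a (0.98), Rsph3b (0.98) and Tle5 (0.98), the first 2 being close copies of each other, and for Etfdh the pyruvate and isocitrate dehydrogenase subunits Pdhb (0.96), Idh3a (0.95) and Idh3b (0.95). Among the 10 genes, Acads and Etfb (0.97), Acadvl and Etfb (0.96) and Acadvl and Acads (0.94) were the most alike. With the group means taken out, Etfb kept 0.85 with Acads and 0.87 with Acadvl, and Etfa was most like Acadl (0.84) and Etfdh most like Acad9 (0.84). These correlations describe 16 tumors that share depth and GC trends, and carry no test.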

How the data were processed

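RNA of 16 B16F10 tumors was sequenced by the study as stranded, poly(A)-selected libraries. Per the labels and the submitters' processing notes, the authors used bcl2fastq 2.20.0, Trimmomatic, HISAT2 2.1.0, the mm10 genome and StringTie 2.1.3b. The read counts were deposited as whole numbers and are not normalized, and the TPM values the authors deposited are normalized for gene length and library total. FPKM values were not used. Samples were grouped by their titles. Depth was 47199949 to 61655287 counts per tumor, and the common biological coefficient of variation over tested genes was 0.233.

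As in the study, only genes without a 0 in any of the 16 tumors were kept, 16209 genes, which left out 29568. TMM scaling and quasi-likelihood tests were run in edgeR 4.0.16 (R 4.3.3), with limma 3.58.1 and DESeq2 1.42.0 as alternatives. The exact test of edgeR with 1 added to counts, which the study applied, was an alternative too. Ratios were tested in scipy 1.17.1 by exact permutation. GC content came from GENCODE vM21 transcripts and was found for 92.8% of tested genes, and its trend was a spline with 5 degrees of freedom. Intervals cover 95%.

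The members and gene lists were chosen with earlier results of these data known, as were the tests and alternatives. Named genes were all 10 members, all related dehydrogenases and regulators, of other lists up to 3 called genes of largest change per comparison, and 3 genes of most similar pattern for each of 4 members. Dvl2, COX1 and Gm45233 were chosen after their values were seen. The values of 1 gene of the mitochondrial list are not reported here. Deviations of tumors with the same number correlated at -0.11 to 0.45 over 24 pairs, with 11 over 0.1, so the numbers were not taken as pairs. Tumors of a group differed beyond sampling noise, with a chi-square per gene of 25.6 to 336.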

Additional observations from a re-analysis of the deposited data

Results flagged for a closer look

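Groups of 4 tumors were checked for a value far from the other 3 by Dixon's criterion at the 95% level, over 56 sets of values. Chance passes about 5% of such sets, and 4 were found. Etfa measured 87.9 CPM in lean tumor 1 before therapy against 75.0 to 76.2 CPM in the other 3, and 81.9 CPM in obese tumor 4 after ETS against 90.4 to 92.1 CPM in the other 3. The log2 TPM ratio of Acadl to Acadm was 2.04 in lean tumor 4 after ETS against 1.80 to 1.82 in the others, and 2.34 in obese tumor 4 after ETS against 2.13 to 2.16.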

How the results depend on the processing

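Acadvl, Acad10, Acads and Etfb were called higher after ETS in lean tumors under every alternative run. With each tumor left out, 4 to 6 genes were called in lean tumors, 3 to 5 in obese tumors (3 without obese tumor 1 or 2 after ETS), 0 to 4 for the lean minus obese effect, 2 to 7 for obese against lean before therapy, and 1 after ETS. Over all tested genes these fits called 5814 to 7308, 4898 to 6505, 1983 to 3096, 3102 to 4221 and 185 to 1340, in the same order. With all tumors the calls were 7099, 6517, 2660, 4280 and 904. The lean minus obese effect had 0 calls in edgeR, 1 with DESeq2's Wald test (Acads), 1 with limma on log2(TPM + 1) and 1 on log2(TPM + 0.1) (Acadl). Only the groups compared in the fit gave 0 calls after ETS, where 66 of all 16209 tested genes were called. The labels do not say what the tumor numbers share, and with the replicate block the lean minus obese effect had 1 call (Acads) and obese against lean before therapy 6. With the replicate block and GC correction these became 2 and 7. Over all tested genes the block gave 3087 and 4801 calls, and the block with GC correction 3210 and 5041. The causes were not tested.

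Values near 0 changed sign. In lean tumors these were Acadm 0.0031 with filterByExpr, and on log2(TPM + 1) and log2(TPM + 0.1) Acad9 -0.25 and -0.26, Acadsb -0.0093 and -0.0097, and Etfa -0.33 and -0.34. In obese tumors Acadm was 0.0022 and Etfdh 0.0044 with DESeq2 size factors, and 0.0023 and 0.0044 with its Wald test. For the lean minus obese effect Acadm was 0.0036 with no exclusion of zeros and 0.028 with filterByExpr, Acad10 0.0025 with filterByExpr, and Acadsb -0.034 and -0.036 on the TPM scales. After ETS, obese against lean, Acad10 was 0.018 and 0.018 and Acadsb 0.072 and 0.074 on the TPM scales. GC correction, without and with the replicate block, gave 0.070 and 0.070 for Acadl and 0.043 and 0.041 for Acadm in lean tumors, 0.052 and 0.052 for Acadm and 0.090 and 0.086 for Etfdh in obese tumors, and 0.029 and 0.028 for Acad10 in the lean minus obese effect.

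With each tumor left out, the values that changed sign ranged for Acadm over -0.055 to 0.020 in lean tumors, -0.066 to 0.071 in obese tumors and -0.10 to 0.056 for the lean minus obese effect, for Etfdh over -0.080 to 0.076 in obese tumors, and for Acad10 over -0.17 to 0.096 for the lean minus obese effect. After ETS, obese against lean, they ranged over -0.23 to 0.041 for Acad10, -0.035 to 0.13 for Acad9, -0.24 to 0.0024 for Acads, -0.097 to 0.0085 for Acadsb and -0.024 to 0.12 for Acadvl.

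Ratio tests with a tumor left out cannot go below an exact p of 0.0571, so they could not pass. Their log2 differences ranged, in lean and obese tumors, over 0.97 to 1.22 and 0.67 to 0.83 for Acadvl to Acadm, 0.98 to 1.22 and 0.39 to 0.55 for Acads to Acadm, -1.10 to -0.84 and -0.93 to -0.75 for Etfa to Etfb, and -0.12 to -0.023 and 0.082 to 0.24 for Acadl to Acadm. With tumors of the same number as a replicate block the values stayed at 1.06 and 0.75, 1.10 and 0.47, and -0.996 and -0.82 for the first 3 ratios, where the smallest exact p a sign flip of 4 pairs can give is 0.125. GC correction gave 0.028 in lean and 0.28 in obese tumors (adjusted p = 0.0381, exact permutation) for Acadl to Acadm, and 0.20 for Acads to Acadm in obese tumors. GC correction and the block with it were chosen after seeing the data.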
